A study of Mus musculus with 4 samples.

Results

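The cyclin-dependent kinase (CDK) inhibitors and the D cyclins were examined in endothelial cells (ECs) sorted from the dura mater and the brain of C57BL/6J mice. These 10 genes were chosen by symbol, as whole families, with earlier results of the dura mater against brain comparison known: the Cip/Kip inhibitors Cdkn1a, Cdkn1b and Cdkn1c, the Ink4 inhibitors Cdkn2a, Cdkn2b, Cdkn2c and Cdkn2d, and the D cyclins Ccnd1, Ccnd2 and Ccnd3. All 10 were found among the 23282 entries of the count table. Their differences between the tissues are therefore given as a description. Test calls among them are only counted beside the share over all genes, and no call or p-value is used as support for a member. The libraries were made to find what sets dura mater ECs apart from brain ECs, since they had sprouted more in a spheroid assay. Total RNA from untreated 8-week-old mice was sequenced from the 3′ end of transcripts, in 2 libraries of brain ECs and 2 of dura mater ECs. Cells were released with collagenase, dispase and DNase, and CD31+ CD45- TER-119- living cells were sorted. Brain ECs, unlike dura mater ECs, were first enriched with magnetic CD31 beads, so tissue and preparation cannot be told apart. Whether replicate libraries came from separate mice is not given in the sources used here, and the spread between them, and any p-value, may be technical.

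D cyclins bind CDK4 or CDK6, and the complex phosphorylates the retinoblastoma protein and its relatives, which releases E2F transcription factors and lets a cell pass from G1 into S phase. Ink4 proteins bind CDK4 and CDK6 and keep the D cyclins off them. Cip/Kip proteins bind cyclin and kinase together, block CDK2 complexes, and can also help to assemble cyclin D with CDK4. Most ECs of adult vessels are quiescent, and the balance of these proteins is among the controls of whether they re-enter the cycle.

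The libraries held 13518973 to 16096203 counts, with a count for 9350 and 9746 genes in the brain libraries and for 10246 and 11803 in the dura mater libraries. Replicates were far apart: 2572 genes had at least 64 counts in one brain library and at most 7 in the other, and 3210 genes did so between the dura mater libraries. Endothelial markers were counted in every library, with 12 of 12 tested, 6 higher and 6 lower in dura mater, and 1 of the lower past the test. Their summed share was 1.16% and 1.35% of counts in brain and 0.923% and 1.20% in dura mater. Other marker lists differed between the tissues. The 18 genes of the dissociation response, all of them higher in dura mater and 5 past the test, made up 0.972% and 0.852% of counts in brain and 3.66% and 3.98% in dura mater. Erythroid genes, with 7 of 9 tested, all of them lower in dura mater and 5 past the test, took 2.66% and 3.63% against 0.218% and 0.114%, a sum over globin copies that can share reads, with Slc4a1 at 0 in all libraries. Fibroblast genes, with 5 of 8 tested, all of them higher in dura mater and 1 past the test, took 0.254% and 0.217% against 1.12% and 1.14%, mostly Mgp (36701 and 29352 counts against 146993 and 178439), and with Col1a1 (20 and 42 against 759 and 1237), Col1a2 (4 and 31 against 1135 and 1913) and Dcn (16 and 15 against 1184 and 1664) also higher. The defining marker Pdgfra had at most 1 count in any library. Leukocyte genes, with 4 of 10 tested, 3 of them above 0 and 0 past the edgeR test, took 0.000235% and 0.00513% against 0.0134% and 0.0118%. Among them Cd74 had 8 and 22 counts in brain and 1108 and 1254 in dura mater, and Cd68 had 4 and 3 against 550 and 441. Csf1r went the other way, with 4 and 646 against 28 and 9, within 709 leukocyte counts in brain replicate 2. Lyz2 (5 and 7 against 9 and 1) and S100a8 (5 and 25 against 18 and 16) were low in all libraries. The defining marker Ptprc had 1 to 4 in every library. The microglial marker P2ry12 was at 0 in all 4 libraries. Mural, osteoblast, neuron, astrocyte and oligodendrocyte lists each made up at most 0.112% of a library. The part of these lists in the members' differences was not tested. In bulk RNA, fewer cells of a type and less RNA per cell cannot be told apart.

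Cdkn1a dominated the group in every library, and the largest fitted difference among the members tested was that of Cdkn2b, which was counted in both brain libraries and almost not at all in dura mater. Levels below are in CPM, the counts scaled to libraries of 1000000 by library size after trimmed-mean (TMM) adjustment, with mean ± SD over 2 libraries, and log2 fold changes are dura mater over brain. Of the 10 members, 9 passed the filter on low counts and Cdkn2a did not. The edgeR quasi-likelihood test called 0 of these 9 at an adjusted p of 0.05, where it called 0.61% of all 9347 genes tested, and 1 of the 9 (Cdkn2b) had an unadjusted p under 0.05, as had 936 of all genes tested. DESeq2 called 1, Cdkn2b, where it called 9.02% of the 8984 genes it gave an adjusted p. The libraries of the tissues did not overlap for Cdkn2d and Ccnd2, which were higher in dura mater, as were 26.2% of all genes tested without overlap. They did not overlap either for Cdkn1c and Cdkn2b, which were lower, as were 16.9% of all genes tested. The median log2 fold change was 0.10 over the 9 members, 6 of them above 0, and -0.01 over all genes tested, 49.8% of them above 0. Nothing is read from these counts, since the same comparison was known when the genes were chosen.

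**Figure D1:**
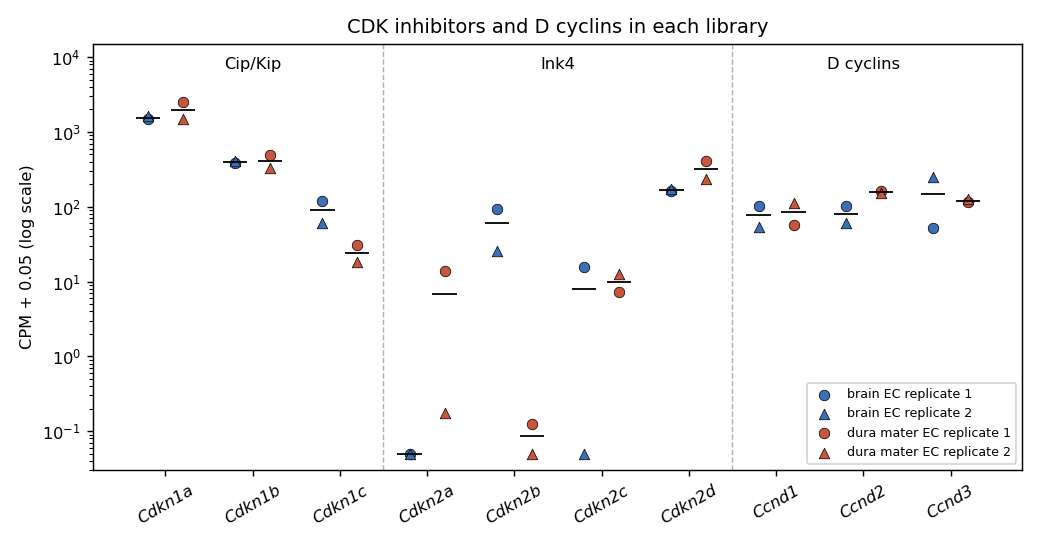
CPM of each of the 10 genes in each library, plotted as CPM + 0.05 on a log axis, with circles for replicate 1, triangles for replicate 2 and a dash for the tissue mean over 2 libraries. Cdkn1a lies between 1468 and 2479 CPM, Cdkn2b is at 94.5 and 25.4 CPM in brain and at 0.0746 and 0 in dura mater, and Cdkn2a is at 0 in both brain libraries.

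Cdkn1a encodes p21, the Cip/Kip inhibitor that p53 induces. It lies on chromosome 17 (29090976 to 29100727, plus strand, GRCm38). It had 21703 and 21329 counts in brain replicates 1 and 2, and 33244 and 23961 in dura mater replicates 1 and 2. These are shares of 0.150% (95% Wilson interval 0.148 to 0.152) and 0.154% of all counts in brain and of 0.246% (0.243 to 0.249) and 0.149% in dura mater, where intervals cover counting error only. Dura mater replicate 1 was thus the high library, and dura mater replicate 2 lay with the brain libraries. In CPM the values were 1497 and 1612 in brain and 2479 and 1468 in dura mater, so that the tissues overlapped. The means were 1555 ± 81.3 and 1973 ± 715, and the log2 fold change was 0.34 with a standard error of 0.34. Without dura mater replicate 1 it was -0.077.

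Cdkn1b encodes p27, a Cip/Kip inhibitor that is high in resting cells and is removed by ubiquitination when they enter the cycle. It had 5587 and 5333 counts in brain and 6510 and 5455 in dura mater. In CPM these were 385 and 403 in brain and 485 and 334 in dura mater, with the brain libraries between those of the dura mater. The means were 394 ± 12.5 and 409.8 ± 107, and the log2 fold change was 0.06 with a standard error of 0.39, changing sign with the scaling (-0.014 with DESeq2 size factors).

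Cdkn1c encodes p57, the Cip/Kip inhibitor whose gene is imprinted and expressed from the maternal copy. It lies on chromosome 7 (143458339 to 143461050, minus strand), where exons of the antisense gene Gm44732 cover 30.7% of its exon length. It had 1752 and 805 counts in brain and 408 and 299 in dura mater. Every brain library was above every dura mater library, at 121 and 60.9 CPM against 30.4 and 18.3. The brain mean was 3.73 times that of dura mater (90.9 ± 42.4 against 24.4 ± 8.56). The replicates themselves differed 1.99-fold in brain and 1.66-fold in dura mater. The log2 fold change was -1.89 with a standard error of 1.21, and it lay between -2.30 and -1.32 in all 14 alternative analyses.

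Cdkn2a and Cdkn2b are neighbours on the minus strand of chromosome 4, 11646 bp apart. Cdkn2b (89306299 to 89311039) encodes p15, an inhibitor known for its induction by TGF-beta. Cdkn2a (89274471 to 89294653) encodes p16 and, from another first exon and in another reading frame, p19Arf, which stabilises p53 by binding MDM2. The first exons, of 207 bp (89281986 to 89282192) for p16 and 320 bp (89294334 to 89294653) for p19Arf, are followed by the same exon 2 and by an exon 3 that differs only in where it ends (304 and 234 bp), so that counts per gene do not separate these products. The sequences upstream of the starts are shown because these adjoining genes had the counts nearest to absence in opposite tissues. Each is the stretch from base 250 to base 51 before a RefSeq start (GRCm38.p6), read 5′ to 3′ on the gene's minus strand, with each CpG in capitals. None of them overlaps an annotated exon.
Cdkn2b, chr4:89311083-89311282: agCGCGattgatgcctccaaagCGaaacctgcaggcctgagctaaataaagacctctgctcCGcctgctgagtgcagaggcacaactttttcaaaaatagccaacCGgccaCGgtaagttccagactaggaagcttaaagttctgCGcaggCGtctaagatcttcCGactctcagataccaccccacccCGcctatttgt
Cdkn2a at the p19Arf start, chr4:89294670-89294869: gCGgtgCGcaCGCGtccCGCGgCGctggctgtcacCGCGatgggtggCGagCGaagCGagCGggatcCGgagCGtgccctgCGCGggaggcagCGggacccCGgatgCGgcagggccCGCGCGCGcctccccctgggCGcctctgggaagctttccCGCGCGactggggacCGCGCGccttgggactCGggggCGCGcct
Cdkn2a at the p16 start, chr4:89282243-89282442: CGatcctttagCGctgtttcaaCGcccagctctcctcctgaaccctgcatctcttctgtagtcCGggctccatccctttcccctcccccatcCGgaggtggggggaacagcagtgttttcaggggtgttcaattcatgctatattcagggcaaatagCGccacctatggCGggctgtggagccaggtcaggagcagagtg
The p19Arf stretch was 79.0% G or C and held 34 CpG, more than 99.2% of the 32851 stretches of this kind over all RefSeq starts in the table. The Cdkn2b stretch held 10 CpG at 52.0% G or C, and the p16 stretch 7 at 57.5%. The median over all stretches was 4 CpG and 51.5% G or C. The table held starts of 7 of the 10 members, with none for Cdkn1c, Ccnd1 or Ccnd2.

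Cdkn2b had 1370 and 336 counts in brain and 1 and 0 counts in dura mater. The brain libraries stood at 94.5 and 25.4 CPM, which is 3.72-fold apart, and the dura mater libraries at 0.0746 and 0. Summed counts of 1706 in brain and 1 in dura mater gave, after scaling for library size, a ratio of 1830. Its exact interval of 328 to 72317 covers counting error only and leaves out the spread between replicates. The fitted log2 fold change was -8.42 with a standard error of 2.51 and depends on the prior count, since the dura mater counts were at or below 1. It lay between -10.81 and -7.18 in the 13 alternative analyses that gave a value.

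Cdkn2a went the other way, absent from both brain libraries (0 and 0 counts) and at 182 and 2 counts in dura mater. By counting error alone, a count of 0 allows up to 0.207 and 0.227 CPM in the brain libraries (3 counts). The dura mater libraries stood at 13.6 and 0.123 CPM, which is 111-fold apart. Against that limit the dura mater mean was 31.6-fold higher, and this rests on dura mater replicate 1, which was 62.6-fold higher. The limit leaves out the spread between replicates, where Cdkn2c, for one, had 229 and 0 counts in brain. These folds are thus not lower bounds on a difference between the tissues. The 2 counts of replicate 2 were below the same limit. The nearest protein-coding genes on either side of the pair, named after their values were seen, were Mtap, 93390 bp away, and Dmrta1, 368397 bp away. Mtap, which encodes an enzyme of methionine salvage, had 107 and 1642 counts in brain and 0 and 83 in dura mater. Dmrta1 was listed at 0 in all 4 libraries.

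Cdkn2c and Cdkn2d encode p18 and p19Ink4d, which act on CDK4 and CDK6 as p15 and p16 do. Cdkn2c had 229 and 0 counts in brain and 97 and 205 in dura mater. The brain libraries lay on either side of both dura mater libraries, at 15.8 and 0 CPM against 7.23 and 12.6. Its log2 fold change of 0.32 with a standard error of 3.28 thus rests on which brain library is counted, and it was -0.67 without brain replicate 2 and 6.17 without brain replicate 1. Cdkn2d had 2353 and 2256 counts in brain and 5517 and 3792 in dura mater, the most of any Ink4 gene in each library. It stood at 162 and 171 CPM in brain and at 411 and 232 CPM in dura mater, with no overlap. The means were 166 ± 5.80 and 322 ± 127, a ratio of 1.93, while the dura mater replicates differed 1.77-fold from each other. The log2 fold change was 0.95 with a standard error of 0.50, and it stayed above 0 in all 14 alternative analyses (0.49 to 1.30).

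**Figure D2:**
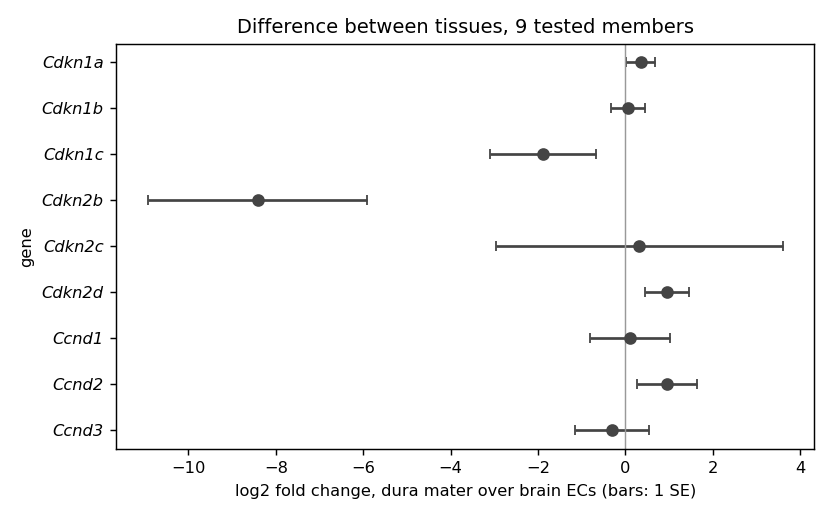
Fitted log2 fold change, dura mater over brain ECs, of the 9 genes that passed the filter on low counts, with bars of 1 standard error over 2 libraries a tissue. Cdkn2b lies at -8.42 and Cdkn1c at -1.89, Cdkn2d and Ccnd2 both lie at 0.95, and the bars of Cdkn1b, Cdkn2c, Ccnd1 and Ccnd3 cross 0.

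The D cyclins connect growth factor signals to the cycle, and all of them activate CDK4 and CDK6. Ccnd1 had 1502 and 709 counts in brain and 765 and 1815 in dura mater. The tissues overlapped, at 104 and 53.6 CPM against 57.0 and 111, and replicates differed 1.93-fold in brain and 1.95-fold in dura mater. Its log2 fold change was 0.10 with a standard error of 0.92 and became -0.016 with DESeq2 size factors. Exons of the antisense gene LTO1 cover 23.4% of its exon length, and whether reads were counted by strand is not given in the sources used here.

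Ccnd2 was the D cyclin whose tissues did not overlap. It had 1462 and 808 counts in brain and 2148 and 2494 in dura mater. In CPM it stood at 101 and 61.1 in brain and at 160 and 153 in dura mater, where the libraries were close. The means were 81.0 ± 28.1 and 156 ± 5.24, a ratio of 1.93 beside a 1.65-fold difference between the brain replicates. The log2 fold change was 0.95 with a standard error of 0.68, between 0.63 and 1.36 in all 14 alternative analyses.

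Ccnd3 had 754 and 3270 counts in brain and 1528 and 2082 in dura mater. Both dura mater libraries, at 114 and 128 CPM, lay between the brain libraries, at 52.0 and 247 CPM. The brain replicates were 4.75-fold apart, the widest gap among the D cyclins, and the dura mater replicates 1.12-fold. The log2 fold change was -0.31 with a standard error of 0.85, and without brain replicate 2 it was 1.21.

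Shares within a family do not depend on how libraries are scaled. Cdkn1a made up 65.8% and 71.0% of the CDK inhibitor counts in brain and 72.3% and 71.1% in dura mater, and Cdkn1b 16.9% and 17.7% against 14.2% and 16.2%. The Cdkn2d share was 7.13% (95% Wilson interval 6.86 to 7.41) and 7.51% (7.21 to 7.81) in brain. In dura mater it was higher, with intervals of 11.7 to 12.3% for replicate 1 and 10.9 to 11.6% for replicate 2 (11.2%). The means were 7.32 ± 0.264% and 11.6 ± 0.535%. The Cdkn1c share was 5.31% and 2.68% in brain and 0.888% and 0.887% in dura mater. Leaving Cdkn1a out, Cdkn2d took 20.8% and 25.8% of the remaining inhibitor counts in brain and 43.4% and 38.9% in dura mater.

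Among the D cyclins no gene led in every library. Ccnd1 took 40.4% of D cyclin counts in brain replicate 1, Ccnd3 took 68.3% in brain replicate 2, and Ccnd2 took 48.4% and 39.0% in the dura mater libraries. The brain replicates thus had different leading D cyclins, and their Ccnd2 shares were 39.3% and 16.9%. All D cyclin counts summed to 3718 and 4787 in brain and 4441 and 6391 in dura mater, against 32994 and 30059, and 45959 and 33714, for the inhibitors.

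**Figure D3:**
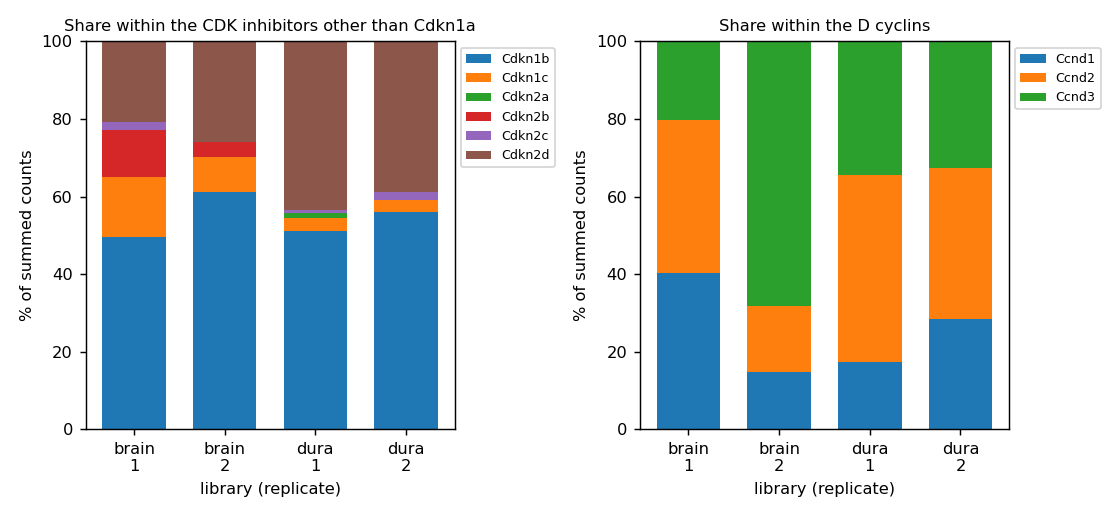
Share of each gene in the summed counts of the CDK inhibitors other than Cdkn1a (left) and of the D cyclins (right), in percent, 1 bar per library. The Cdkn2d part of the left bars is 20.8% and 25.8% in brain and 43.4% and 38.9% in dura mater, and the Ccnd3 part of the right bars is 20.3% and 68.3% in brain.

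The patterns most like those of the most counted inhibitor and D cyclin were looked for among 4265 other genes with at least 64 counts in every library, by the root mean square difference of log2 CPM centred on each gene's mean over the 4 libraries. Those nearest to Cdkn1a were Degs1 (0.0243), Sept7 (0.0502) and Csnk1d (0.0581). Nearest to Ccnd3 were Efcab14 (0.0253), Rad17 (0.0277) and Slc25a11 (0.0579). With 4 libraries such closeness is a description of these libraries.

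Of 108 other genes of the cell-cycle machinery, all in the table, 72 passed the filter on low counts. The edgeR test called 0 of the 72, with adjusted p-values from 0.311 to 1.00, where it called 0.61% of all genes tested. An unadjusted p under 0.05 was found for 3 of the 72 and for 936 of all 9347. Above 0 were 33 and below 0 were 39, with a median log2 fold change of -0.14. DESeq2 called 2 of the 70 genes it gave an adjusted p, where it called 9.02% of all 8984 such genes. Both were higher in dura mater. Tfdp1, which encodes the partner of E2F factors, had 0 and 0 counts in brain and 668 and 82 in dura mater (DESeq2 adjusted p = 0.0127). Cdkn2aip, whose product binds p19Arf, had 1 and 0 against 1172 and 674 (DESeq2 adjusted p = 0.000121). Both were named after their values were seen. Of the 108 genes, 29 had at least 64 counts in every library, and 8 were listed at 0 in all of them: Cdk6, Skp2, Foxo3, Ccna1, Cdc25c, Aurkb, Sesn2 and E2f8. Over all 23282 entries, 4265 besides Cdkn1a had at least 64 counts in every library, and 9622 were at 0 in all. By counting error alone, zeros allow up to 0.184 to 0.227 CPM per library (3 counts).

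The kinases of G1 and their helpers had 6 of 7 genes tested, 4 above and 2 below 0, with a median log2 fold change of 0.66. Without overlap 2 were higher and 1 was lower in dura mater, against 26.2% and 16.9% of all genes tested. Cdk4, the partner of the D cyclins, had 1390 and 1161 counts in brain and 711 and 2272 in dura mater, with the brain libraries between those of dura mater (log2 fold change 0.07, standard error 0.85). Cdc37, the co-chaperone that loads CDK4 onto HSP90, was at 1986 and 1734 against 1168 and 1272 counts, a log2 fold change of -0.70 with a standard error of 0.68. Mnat1, an assembly factor of the CDK-activating kinase, was at 876 and 178 against 374 and 379. None of the 6 passed the edgeR test.

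Of the retinoblastoma family, E2F and DP genes, 9 of 13 were tested, with 4 above and 5 below 0 and a median of -0.15. Without overlap 1 was higher and 2 were lower, against 26.2% and 16.9% of all genes tested. Rbl2, which encodes the pocket protein p130 of quiescent cells, was the most counted, at 4248 and 3367 in brain and 2114 and 3116 in dura mater (log2 fold change -0.65, standard error 0.46). E2f4, a mainly repressive E2F, was at 140 and 891 against 928 and 527 counts, and Tfdp2 at 648 and 1101 against 158 and 375. The DREAM complex silences cell-cycle genes in quiescent cells. A list of genes of and around it, without those of the list above, had 5 of 6 genes tested, 3 above and 2 below 0, with a median of 0.22. The most counted genes of this list were Rbbp4 (5215 and 2424 against 3028 and 3847), Dyrk1a (1542 and 602 against 500 and 2288) and Lin54 (435 and 18 against 488 and 106), all with overlap between the tissues.

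Genes of later steps were sparse. Of the E, A and B cyclins with CDK1 and the CDC25 phosphatases, 5 of 10 were tested, 3 above and 2 below 0, with a median log2 fold change of 4.0. Ccne1 and Ccne2, the E cyclins that activate CDK2, were named after their values were seen. They had 1 and 0 counts in brain and 180 and 54 in dura mater, and 4 and 12 against 218 and 178. Both were higher in dura mater without overlap, as were 26.2% of all genes tested. The 3 most counted, Cdc25a (495 and 2 counts in brain, 309 and 65 in dura mater), Cdc25b (627 and 0 against 2 and 117) and Ccna2 (1 and 31 against 0 and 700), each had no more than 2 counts in 1 or more of the libraries. Of 15 genes of G2 and mitosis, 3 were tested, all below 0, with a median of -1.15. Without overlap 1 was lower, against 16.9% of all genes tested. The 3 tested were Top2a (18 and 452 against 5 and 1), Cdc20 (1 and 1012 against 0 and 844) and Birc5 (277 and 0 against 0 and 138). Mki67, the common marker of cycling cells, was not tested and had 1 and 6 counts in brain and 1 and 55 in dura mater. Other untested genes, named after their values were seen, were counted almost only in dura mater replicate 2. These were Plk1 (1 and 0 against 0 and 275), Kif11 (0 and 0 against 0 and 142), Bub1b (0 and 0 against 0 and 74) and Ube2c (0 and 1 against 0 and 64). Cdk1 (2 and 0 against 1 and 129) and Ccnb2 (1 and 0 against 1 and 146) were alike. Tpx2, Nusap1 and Bub1 had a few counts in brain only. The direction of the 3 tested genes thus does not stand for the list.

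The S phase genes, which E2F factors induce, had 10 of 15 genes tested, 7 above and 3 below 0, with a median log2 fold change of 1.01. The libraries of the tissues did not overlap for 5 of the 10, all higher in dura mater, against 26.2% of all genes tested. Mcm6, a subunit of the replicative helicase, had 891 and 822 counts in brain and 2710 and 1300 in dura mater (log2 fold change 1.19, standard error 0.82). Mcm4, of the same helicase, had 718 and 460 against 756 and 1527, and Gins2 1706 and 4346 against 2886 and 2957. None of the 10 passed the edgeR test.

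Of the genes that degrade the inhibitors and D cyclins, 10 of 12 were tested, 3 above and 7 below 0, with a median of -0.57. Without overlap 2 were higher and 3 lower in dura mater, against 26.2% and 16.9% of all genes tested. Rnf123, which encodes the ubiquitin ligase KPC1 that acts on p27, had 2064 and 2108 counts in brain and 3 and 523 in dura mater, so that the dura mater replicates were far apart (log2 fold change -3.21, standard error 1.86). Gsk3b, a kinase that marks cyclin D1 for export and degradation, had 3645 and 2917 against 2674 and 1232, and Skp1a, a part of SCF ubiquitin ligases, 693 and 1443 against 459 and 1435.

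Of p53 and its targets, 14 of 16 were tested, 6 above and 8 below 0, with a median of -0.27. Without overlap 3 were higher and 2 lower, against 26.2% and 16.9% of all genes tested. Mdm4, which encodes an inhibitor of p53, had 3817 and 6401 counts in brain and 2377 and 1395 in dura mater, without overlap. Its log2 fold change was -1.51 with a standard error of 0.59 (edgeR adjusted p = 0.466). Mdm2, the p53 ubiquitin ligase, had 1151 and 2537 against 2298 and 3788, with overlap (0.57, standard error 0.64). Btg2, which is also in the dissociation list, had 10327 and 2776 against 7952 and 9246.

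Of the genes known to regulate the members, 10 of 14 were tested, 3 above and 7 below 0, with a median of -0.49. Without overlap 1 was higher and 4 were lower in dura mater, against 26.2% and 16.9% of all genes tested. Foxo1, a transcription factor that restrains EC growth and can induce Cdkn1b, had 6160 and 2355 counts in brain and 6553 and 6487 in dura mater (log2 fold change 0.55, standard error 0.52). Foxo4 had 1350 and 2133 against 778 and 1348. Bmi1, the Polycomb protein that represses Cdkn2a, had 2070 and 1087 against 706 and 927, without overlap, and a log2 fold change of -1.04 with a standard error of 0.85 (edgeR adjusted p = 0.904).

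**Figure D4:**
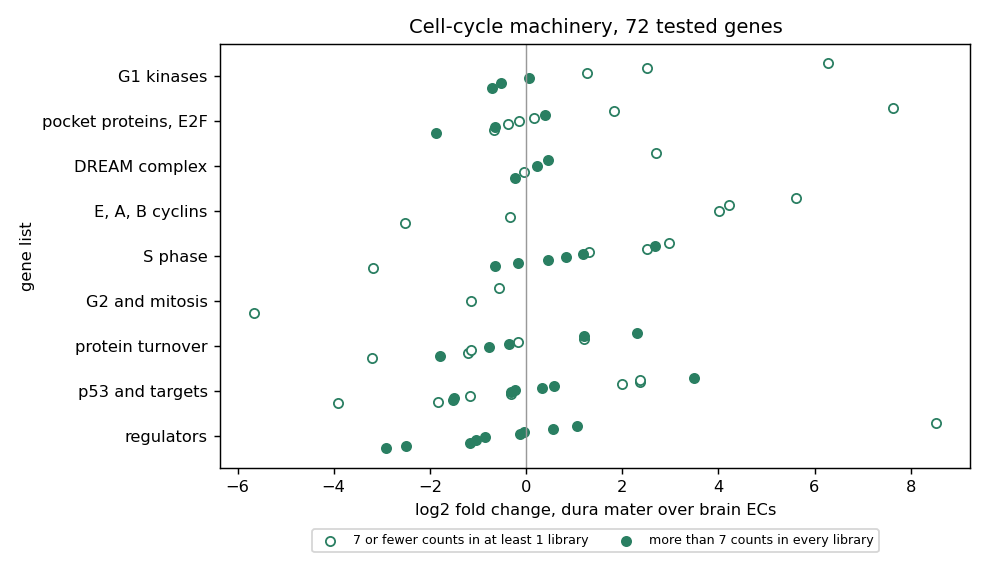
Fitted log2 fold change, dura mater over brain ECs, of the 72 tested genes of the cell-cycle machinery, 1 point per gene and 1 row per list, with open points for genes of 7 or fewer counts in at least 1 library. The S phase row has 7 of 10 points above 0, and Cdkn2aip lies farthest to the right in the row of regulators.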

How the data were processed

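The authors deposited whole-number read counts per gene for each library. The study's methods name TopHat and cufflinks, and the submitters' processing notes name Bowtie2, edgeR and mm10. Their versions, the counting tool, its annotation and its use of strand are not given in the sources used here. The members and gene lists were chosen with earlier results of these data known.

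Tests were fitted to all 4 libraries with edgeR 4.0.16 in R 4.3.3 (TMM scaling, filterByExpr, quasi-likelihood F test, Benjamini-Hochberg over 9347 genes, adjusted p threshold 0.05). The standard error of a log2 fold change (prior count 2) was its absolute value over the square root of F. limma 3.58.1 (voom) and DESeq2 1.42.0 were alternatives. The steps were run on simulated data with known changes. A pass condition was set only at a spread far below that of these libraries, so it does not show what the tests can find here. Named were all members, and per pathway list the genes past the test and the 3 with the highest mean CPM. Totals of 13518973 to 16096203 counts limit precision less than the replicate spread (common biological coefficient of variation 1.39). Gene positions came from GENCODE M21 and upstream sequences from RefSeq, both on GRCm38, the build also called mm10.

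Replicates shared only a number from the sample titles. Wilson intervals (95%), the exact interval of the Cdkn2b ratio and limits of 3 counts cover counting error only.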

Additional observations from a re-analysis of the deposited data

How the results depend on the processing

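Of 14 alternatives, 1, the newer edgeR dispersion estimate, was chosen after seeing the data. Genes past the test numbered 57 (70% higher) in the reported analysis, 810 with DESeq2, 326 with no filter on low counts, 306 with the newer dispersion estimate and 141 with at least 10 counts in every library (75 higher, 66 lower), where Cdkn2a, Cdkn2b and Cdkn2c gave no value. Limma-voom called 80 (40 higher, 40 lower). Leaving out 1 library gave 0 to 54, namely 0 without brain replicate 1, 5 without brain replicate 2 and 30 without dura mater replicate 1 (22 higher, 8 lower), while the 54 without dura mater replicate 2 were 24 higher and 30 lower, with the lone library assumed to vary like the other tissue's. With the replicate number as a block 224 were called, 0 of them members. Libraries of the same number did not deviate together over the genes tested (correlation -0.0171). With replicates this far apart, that value cannot decide whether the number pairs them. Members called were 1 with DESeq2, which called 2 machinery genes, and 0 under the other 12 alternatives that give calls. Machinery genes called were 1, Trp53inp1 (2778 and 2379 counts in brain, 1 and 395 in dura mater), with no filter and with the newer dispersion estimate.

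Directions of the log2 fold change turned for 5 members. Leaving out 1 library moved Cdkn1a from -0.077 (without dura mater replicate 1) to 0.67 and Cdkn1b from -0.23 (without dura mater replicate 1) to 0.30. It moved Ccnd1 from -0.46 (without dura mater replicate 2) and -0.30 (without brain replicate 2) to 0.65, and Ccnd3 from -1.03 to 1.21 (without brain replicate 2). Cdkn2c went from -0.67 (without brain replicate 2) and -0.12 (without dura mater replicate 2) to 6.17. With relative log scaling in edgeR and with DESeq2, Cdkn1b was at -0.014 and Ccnd1 at -0.016. Ccnd3 was at 0.14 with limma-voom and at 0.087 with the replicate block. Cdkn1c, Cdkn2b, Cdkn2d and Ccnd2 kept their direction in every alternative that gave a value. Replicate spread, not depth, limits these values.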
